A study of Mus musculus with 4 samples.

Results

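LIF withdrawal in control stem cells was measured as 1 array of E14tg2a cells kept in 3000 U/ml LIF against 1 array of E14tg2a cells kept for 4 days without it. These are 2 of the 4 arrays in the study, and they were chosen by their titles and descriptions, with no measured value used in the choice. E14tg2a is a mouse embryonic stem cell line, here grown without a layer of feeder cells. The other 2 arrays hold E14tg2a cells expressing constitutively active Akt, titled Akt12, under the same 2 conditions. Levels in the active-Akt cells are given beside those of the control cells. Whether the control cells carried an empty vector, what drove expression of the active Akt and whether Akt12 is 1 clone is stated in no source used here. Each group has 1 array, and no label describes separate cultures, so no difference here has a replicate check or a p-value, and the number of arrays limits the precision. The only error that can be given is the spread between different probe sets of the same gene. It had an SD of 0.411 on the log2 scale over 1770 probe sets of 827 genes in the control comparison. That SD covers the probes and not the cultures.

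LIF, leukaemia inhibitory factor, is a cytokine added to the medium of mouse embryonic stem cells to stop them differentiating. It binds a receptor made of Lifr and the shared subunit gp130 (Il6st), which activates Jak kinases, the transcription factor Stat3, and the MAPK and PI3K-Akt pathways. Socs3 is a direct Stat3 target that shuts the receptor off again. When the cytokine is taken away, the cells leave the undifferentiated state over days and give rise to a mixture of cell types. In such a mixture, fewer cells of a type and less RNA per cell cannot be told apart.

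All 4 arrays were set to 1 scale by quantile normalisation. Values are linear hybridisation intensities on that scale. Intensities under 15.8, the 40th percentile, were set to this floor, a chosen cut-off below which values were not ranked. Of 8251 genes named on the array, 5984 exceeded the floor on the control array with LIF, the control array without LIF or both, and 5625 to 5659 were above it on any 1 array. As deposited, the 2% trimmed mean intensity was 121 with LIF and 97.4 without it in control cells, and 81.7 and 80.3 in active-Akt cells. The ratio of 3' to 5' actin control probes, a sign of RNA length, was 2.33 and 1.66 in control cells and 3.04 and 2.48 in active-Akt cells. The same ratio for Gapdh was 3.03 and 3.19 in control cells and 3.05 and 2.46 in active-Akt cells, so the 2 ratios differed in direction between the control arrays. The undifferentiated state was present in the array with LIF: 14 of 15 stem cell markers were above the floor, and 11 of the 14 were at least 2-fold lower without LIF. Defining leukocyte markers (Ptprc, Itgam, Lyz2, Tyrobp) were at the floor on all 4 arrays, and so were the endothelial markers Cdh5, Tie1, Cd34 and Emcn. Summed over the list, leukocyte markers were at 474, 338, 1008 and 515 in the order control with LIF, control without LIF, active Akt with LIF and active Akt without LIF. Endothelial markers summed to 558, 609, 908 and 716 in that order. The Y-linked gene Eif2s3y was at 135 with LIF and 84.1 without it in control cells and at 16.5 and the floor in active-Akt cells. Uty, also Y-linked, was at 37.1 with LIF in control cells and at the floor on the other 3 arrays. Both were thus lower without LIF in control cells too, with a median of -0.96 over these 2 measured genes, and the part of this difference in the results was not tested.

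After 4 days without LIF, 442 of the 5984 measured genes (7.39%) were at least 2-fold higher and 383 (6.40%) at least 2-fold lower, 13.8% in all. Below, a gene is called higher or lower when it differs by 2-fold or more between these arrays. The median over all measured genes was -0.03 on the log2 scale. Of the 442 higher genes, 88 were at least 4-fold higher and 10 at least 8-fold higher. Of the 383 lower genes, 57 were at least 4-fold lower and 11 at least 8-fold lower. For 71 of the higher and 69 of the lower genes 1 of the arrays was at the floor, and their fold is then a lower bound, written as "at least". A second probe set above the floor existed for 145 of these genes. Of 165 such probe sets, 142 differed in the same direction, 60 of them by 2-fold or more. The other 23 differed in the opposite direction, 2 of them by 2-fold or more. Second probe sets at the floor on both control arrays were not counted. Probe sets whose names end in _f_at, _s_at, _i_at, _r_at or _g_at can bind near-identical relatives, which applies below to some actins, keratins, the Sprr2 family and the H2 class I genes.

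Genes were grouped into 46 lists by known role. The lists were chosen with earlier results of these data known, so their shares describe the lists and are not a test. The shares of a list that were at least 2-fold higher ran up to 53.8%, for annexins and galectins, beside 7.39% of all genes. The shares that were at least 2-fold lower ran up to 40%, for germ cell and meiosis genes, beside 6.40% of all genes. Actin cytoskeleton (44.4%), antigen presentation (44.0%), imprinted (42.1%) and interferon-inducible genes (37.0%) followed on the higher side. Genes of LIF and gp130 signalling (29.6%) and of ribosome biogenesis (18.4%) were among the next on the lower side.

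**Figure D1:**
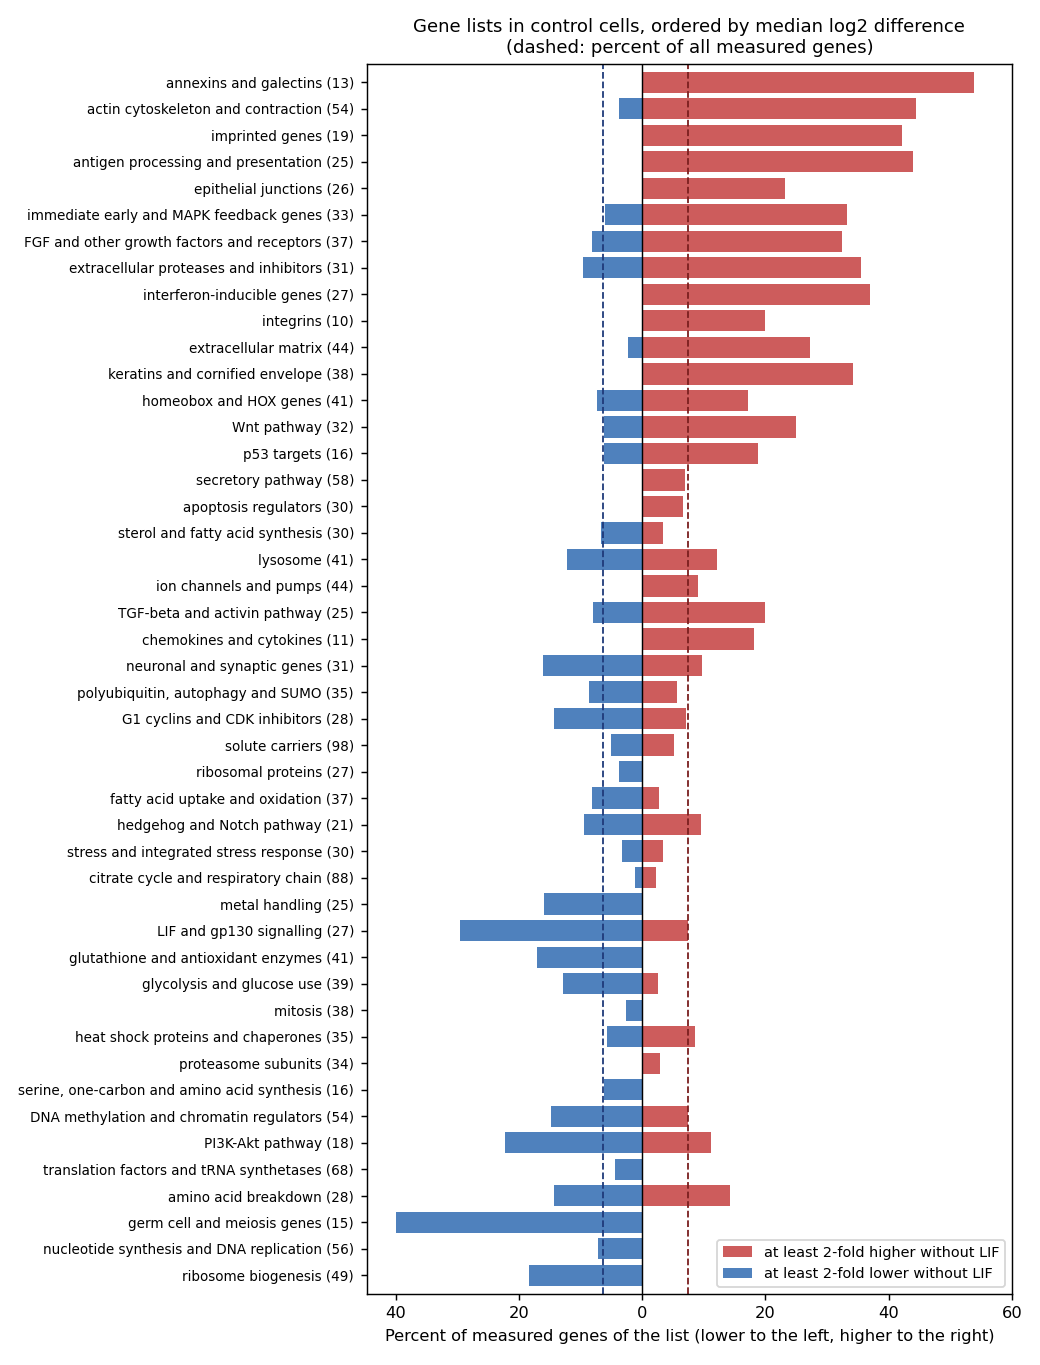
Share of measured genes in each list (percent of genes, horizontal axis) that were at least 2-fold higher or at least 2-fold lower in control cells after 4 days without LIF, from 1 array a condition. Vertical lines mark the shares over all measured genes, 7.39% and 6.40%, and annexins and galectins reach 53.8% on the higher side.

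Secreted signalling proteins and the proteins that release them were among the genes with the largest differences. The TGF-beta ligands act on receptor kinases that signal through Smad proteins and control matrix production. Tgfb1 was at 16.0 with LIF and 329 without it, a difference of 20.6-fold from a level just above the floor, and was at the floor on both active-Akt arrays. Tgfb2 was at 17.4 and 89.1, a 5.12-fold difference, and was also at the floor in active-Akt cells. Both ligands therefore had a level well clear of the floor on a single array, control without LIF. Follistatin (Fst), which binds and blocks activin, was at 42.3 and 179.7 in control cells and 32.3 and 99.3 in active-Akt cells, 4.25-fold higher without LIF in the former. Tgfb1i1, a focal adhesion protein named as a TGF-beta-induced transcript, was at 100.1 and 354, with 83.4 and 82.7 in active-Akt cells. In the TGF-beta and activin list 5 of 25 measured genes were called higher, 2 lower, and the median was 0.14. The 2 lower genes were Gdf3, at 226 and 77.2, and the Nodal co-receptor Tdgf1, at 301 and 71.4, both known from undifferentiated cells.

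Wnt proteins are secreted lipid-modified ligands, and Wls is the carrier that takes them to the cell surface. Wls was at 49.7 with LIF and 517 without it in control cells, 10.4-fold higher, and at 29.1 and 34.1 in active-Akt cells. Wnt6 was at 19.9 and 311, 15.6-fold higher, with the floor and 25.8 in active-Akt cells. Wnt3 was at 75.1 and 376, 5.01-fold higher, and at 26.2 and 114 in active-Akt cells. Of these 3 genes, Wnt3 was the one that also differed by over 2-fold between the active-Akt arrays. Wnt10a was at 24.1 and 94.3, and Wnt4 and Wnt5b were at the floor with LIF and at 224 and 44.9 without it, at least 14.2-fold and at least 2.85-fold higher. The receptor Fzd2 was 2.61-fold higher. Going the other way, the secreted Wnt antagonist Sfrp1 was at 55.4 with LIF and at the floor without it, at least 3.51-fold lower, while it was above the floor on both active-Akt arrays. Dvl2, a cytoplasmic transducer, was 2.81-fold lower. Of 32 measured genes of the Wnt list, 8 were called higher, 2 lower, and the median was 0.30.

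Other ligands and receptors followed. Endothelin 1 (Edn1), a vasoactive peptide precursor, was at 35.9 and 247 in control cells and at the floor in both active-Akt arrays. Its second probe set, a less specific one, differed by 0.19 on the log2 scale, so the 6.87-fold difference rests on 1 of 2 probe sets. Csf1, the macrophage growth factor, was at 47.7 and 323, 6.76-fold higher, with 17.2 and 30.0 in active-Akt cells. The insulin-like growth factor binding protein Igfbp3 was at 177 and 979, 5.53-fold higher, and its second probe set differed by 4.28 on the log2 scale. Igfbp2 was at 278 and 1471, 5.29-fold higher, against 305 and 385 in active-Akt cells. These binding proteins hold insulin-like growth factors outside the cell. The receptor Igf1r, at 104 and 263, was 2.53-fold higher as well. Fgf4, the fibroblast growth factor that embryonic stem cells secrete, was at 403 and 78.0, 5.16-fold lower, and was at 674 and 481 in active-Akt cells. The receptor tyrosine kinase Kit was 3.01-fold lower while its ligand Kitl was 2.87-fold higher. Of 37 measured growth factor and receptor genes 12 were called higher, 3 lower, and the median was 0.50.

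The genes of the actin cytoskeleton were higher without LIF as a group. Of 54 measured genes 24 were called higher, 2 lower, and the median was 0.76 beside -0.03 for all genes, and 47 of the 54 were above 0. Many genes of this kind are read by serum response factor, which binds a sequence called the CArG box together with actin-sensing partners. Promoters of 4 members that were higher are printed here as chosen examples that hold the motif. They run from 250 bases before to 50 bases after the gene start, from RefSeq for the mouse build GRCm38.p6, written 5' to 3' on the strand of the gene, with the CArG box in capitals. They are Acta1 (chr8:123894726-123895025, minus strand, motif starting 73 bases before the gene start), Actc1 (chr2:114052826-114053125, minus strand, 47 bases), Vcl (chr14:20929148-20929447, plus strand, 227 bases) and Myl9 (chr2:156775214-156775513, plus strand, 161 bases).
Acta1: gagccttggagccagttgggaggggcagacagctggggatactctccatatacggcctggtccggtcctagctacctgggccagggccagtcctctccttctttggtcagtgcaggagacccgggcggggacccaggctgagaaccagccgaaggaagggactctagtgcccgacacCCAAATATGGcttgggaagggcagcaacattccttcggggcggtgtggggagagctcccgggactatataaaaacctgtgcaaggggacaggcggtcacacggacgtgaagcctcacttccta
Actc1: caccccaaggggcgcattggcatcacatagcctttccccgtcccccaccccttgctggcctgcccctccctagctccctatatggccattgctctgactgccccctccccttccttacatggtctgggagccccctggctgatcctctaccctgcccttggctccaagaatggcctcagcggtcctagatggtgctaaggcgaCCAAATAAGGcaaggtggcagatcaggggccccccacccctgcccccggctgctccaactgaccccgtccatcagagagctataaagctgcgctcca
Vcl: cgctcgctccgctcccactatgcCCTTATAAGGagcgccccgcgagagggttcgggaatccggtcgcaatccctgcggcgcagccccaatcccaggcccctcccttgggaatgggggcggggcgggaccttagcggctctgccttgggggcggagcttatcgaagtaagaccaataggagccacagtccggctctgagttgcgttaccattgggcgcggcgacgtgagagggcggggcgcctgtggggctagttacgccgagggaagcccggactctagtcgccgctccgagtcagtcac
Myl9: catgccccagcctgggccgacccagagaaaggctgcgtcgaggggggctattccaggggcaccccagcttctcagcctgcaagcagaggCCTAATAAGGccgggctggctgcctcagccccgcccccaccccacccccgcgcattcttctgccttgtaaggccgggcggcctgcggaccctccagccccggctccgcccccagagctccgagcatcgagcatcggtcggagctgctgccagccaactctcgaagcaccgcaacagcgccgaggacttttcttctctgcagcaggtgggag
The CArG box was searched on both strands of these windows and shared no base with the other motifs searched. It lay in 7 of the 23 higher list members that have a promoter in the table (Acta1, Actc1, Cnn2, Fhl1, Fhl2, Myl9, Vcl) and in 2 of the 26 members between the thresholds. Over the whole promoter table it lay in 1.81% of 27025 genes, and in 1.8% of the 4830 measured genes there. It lay in 17 of 348 higher genes (4.89%) and in 7 of 312 lower genes (2.24%). The list holds genes of a kind known for this element, so the share within it describes the list. A match describes the letters and says nothing of binding in these cells.

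The 3 muscle-type actins were each over 4-fold higher. Skeletal alpha-actin (Acta1) was at 99.7 with LIF and 1114 without it in control cells, 11.2-fold higher, and at 16.2 and 88.2 in active-Akt cells. Cardiac alpha-actin (Actc1) was at 141 and 789.8, 5.60-fold higher, and a second probe set differed by 3.37 on the log2 scale. Smooth muscle alpha-actin (Acta2) was at 211 and 904, 4.29-fold higher, against the floor and 69.0 in active-Akt cells. The array without LIF was the highest of the 4 for each of these actins. Transgelin (Tagln), an actin-binding protein of smooth muscle and spreading cells, was at 273 and 1318, 4.83-fold higher, with 20.2 and 79.5 in active-Akt cells. Muscle markers summed to 575, 2170, 469 and 576 over the arrays in the order given above, with Myh3, Tnni2 and Tnnt2 at the floor on all 4. Of the 11 measured genes of that list 2 were called higher, the actins Acta1 and Actc1 counted here, and 1 lower. In that list 8 of the 11 were below 0 and the median was -0.08. Its part in the actin result was not tested.

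Proteins that tie actin filaments to the membrane and to adhesion sites were higher too. Lpp, a focal adhesion protein, was at 104 and 742, 7.11-fold higher, while active-Akt cells had 103 and 85.2. Vinculin (Vcl), which links integrin and cadherin complexes to actin, was at 616 and 1494, 2.42-fold higher, with 336 and 384 in active-Akt cells. Rhob, a small GTPase that is induced by growth factors and stress, was at 172 and 928, 5.40-fold higher. The LIM proteins Fhl1, Fhl2 and Csrp1 were 3.81, 2.91 and 3.60-fold higher. Tropomyosin Tpm1 was at 557 and 1814 and Tpm4 at 912 and 2519. The crosslinker Actn1 was at 1450.4 and 3394, the severing protein Gsn at 28.3 and 99.2, and the myosin light chain Myl9 at 65.5 and 139. Non-muscle myosin Myh9 was 2.19-fold higher by the probe set used, but a second, less specific probe set differed by -0.58 on the log2 scale. The core filament-turnover genes differed little: Cfl1 by 0.07 (below 0 under 2 other scalings), Pfn1 by 0.33 and Tmsb10 by 0.45 on the log2 scale. The 2 lower genes were Twf2 (twinfilin 2), which sequesters actin monomers, at 162 and 19.2 against 136 and 158 in active-Akt cells, and the LIM protein Csrp2, at 485 and 128.

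Extracellular proteases, their inhibitors and the matrix they act on were higher in part. Of 31 measured protease and inhibitor genes 11 were called higher, 3 lower, and the median was 0.49. Of 44 measured matrix genes 12 were called higher, 1 lower, and the median was 0.38. The membrane protease Tmprss2 and the gelatinase Mmp9 were at the floor on all arrays but control without LIF, where they were at 288 and 124, at least 18.3-fold and at least 7.85-fold higher. The sheddase Adam9 was at 45.7 and 204, with 45.0 and 50.6 in active-Akt cells. The membrane collagenase Mmp14 was 2.74-fold higher and the urokinase receptor Plaur 2.90-fold higher. Inhibitors were higher alongside: Timp3, which blocks metalloproteases, was at 61.0 and 232, and Spint1, which blocks membrane serine proteases, at 121 and 300.1. Serpinh1, the collagen chaperone, was at 117 and 403, 3.45-fold higher. The 3 lower genes of the list were Tfpi, the inhibitor of tissue factor, Mmp11 and Htra1, by 2.45, 2.23 and 2.22-fold.

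The basement membrane collagens Col4a1 and Col4a2 were at 176 and 548 and at 81.7 and 216, 3.12 and 2.65-fold higher. In active-Akt cells they were at 416 and 445 and at 194 and 208, levels that lay above those of the control cells with LIF under both conditions. Fibrillar collagens Col5a1 and Col1a1 were 2.67 and 2.39-fold higher, and Col3a1 was at the floor on the other 3 arrays and at 71.7 in control cells without LIF. Decorin (Dcn), a small proteoglycan that coats collagen fibres, was at 16.6 and 153, 9.20-fold higher from a level just above the floor. Ccn1, a matrix-associated signalling protein, was at 53.2 and 189.8, with the floor and 25.1 in active-Akt cells. Lama1, a chain of the laminin of early embryos, went the other way, from 51.5 to the floor, at least 3.27-fold lower, against 178 and 92.3 in active-Akt cells. Among integrins, the matrix receptors, 2 of 10 measured genes were called higher, none lower: Itgav was at 272 and 763, and Itgb1 at 985 and 2045. With plain _at probe sets alone none of 7 was called higher. The count was 1 of 10 with the mean of all probe sets and when scaled to the hybridisation controls. Another Itgav probe set differed by 0.30 and another Itgb1 probe set by 1.30 on the log2 scale. Fibroblast and feeder markers summed to 400, 774, 493 and 478 over the arrays in the order given above, 4 of 11 measured markers were at least 2-fold higher, and Pdgfrb, Fap, Postn and Prrx1 were at the floor on all 4. The part of this marker list in the matrix result was not tested.

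Genes of epithelial cells were higher without LIF. Desmosomes are junctions that anchor keratin filaments, and 6 of 26 measured junction genes were called higher, none lower, and the median was 0.54. Desmocollin 2 (Dsc2) was at 28.7 and 214 in control cells, 7.45-fold higher, and at 21.0 and 22.3 in active-Akt cells. Desmoplakin (Dsp), which binds keratin filaments to the junction, was at 311 and 1308, 4.21-fold higher, with 136 and 195. Desmoglein 2 (Dsg2) was 2.89-fold and the tight junction scaffold Tjp1 2.44-fold higher. Of 38 measured keratin and cornified envelope genes 13 were called higher, none lower, and the median was 0.36, with 8 of 21 when plain _at probe sets alone were used. The simple-epithelium keratins Krt8 and Krt18, which pair with each other, were at 156 and 768 and at 132 and 627, 4.91 and 4.75-fold higher. Krt19 was at 99.5 and 538 and Krt7 at 32.8 and 147. Stratifin (Sfn), an epithelial 14-3-3 protein, was at 128 and 488, against 27.6 and 55.5 in active-Akt cells. The small proline-rich protein Sprr2b was 8.16-fold higher by a probe set that may read its close relatives. Trophoblast markers, which include keratins, summed to 921, 2542, 868 and 1046 in the order of arrays given above. Of 9 measured markers 4 were at least 2-fold higher, and these were the keratins Krt7, Krt8, Krt18 and Krt19. None of the other measured markers was past 2-fold, and Elf5 and Tpbpa were at the floor on all 4 arrays. The part of this marker list in the keratin result was not tested.

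Annexins bind membranes when calcium is present, and galectins bind sugars on cell surface proteins. In this list 7 of 13 measured genes were called higher, none lower, and the median was 1.02. Annexin Anxa2 was at 218 with LIF and 1089 without it, 4.99-fold higher, and at 135 and 211 in active-Akt cells. Its binding partner S100a10, of the keratin and cornified envelope list, was at 756 and 2351, 3.11-fold higher, with 394 and 534 in active-Akt cells. Anxa3 was at 221 and 1034, 4.68-fold higher, and at 23.1 and 81.5 in active-Akt cells. Both annexins were lowest in active-Akt cells with LIF and highest in control cells without LIF. Anxa5 was 4.35-fold and Anxa1 3.10-fold higher. Galectin 1 (Lgals1) was at 530.3 and 1278 in control cells, and at 1058 and 890.1 in active-Akt cells. Galectin 3 (Lgals3) was at 157 and 380.1 in control cells, 2.43-fold higher, and at 536 and 113 in active-Akt cells, the opposite direction.

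Interferon-inducible genes, the cell-autonomous defence genes that interferons switch on through STAT and IRF factors, were higher without LIF, with levels at or near the floor in active-Akt cells for many of them. Of 27 measured genes 10 were called higher, none lower, and the median was 0.48 beside -0.03 for all genes. The promoters of 4 of them are printed because each holds the core of the interferon-stimulated response element, the sequence GAAANNGAAA read by IRF and STAT complexes, where N is any base. They are RefSeq windows of the same extent and build, 5' to 3' on the strand of the gene, with the motif in capitals. They are Isg15 (chr4:156200769-156201068, minus strand, 3 overlapping matches starting 78, 72 and 66 bases before the gene start), Gbp2b (chr3:142594597-142594896, plus strand, 137 bases), Gbp3 (chr3:142559794-142560093, plus strand, 2 overlapping matches at 45 and 39 bases) and Cxcl10 (chr5:92348840-92349139, minus strand, 213 bases).
Isg15: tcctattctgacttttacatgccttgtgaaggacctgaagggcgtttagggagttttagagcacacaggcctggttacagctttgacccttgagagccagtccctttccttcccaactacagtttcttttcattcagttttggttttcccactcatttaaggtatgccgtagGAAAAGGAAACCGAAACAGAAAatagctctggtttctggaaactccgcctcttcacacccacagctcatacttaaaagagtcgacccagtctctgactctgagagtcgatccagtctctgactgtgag
Gbp2b: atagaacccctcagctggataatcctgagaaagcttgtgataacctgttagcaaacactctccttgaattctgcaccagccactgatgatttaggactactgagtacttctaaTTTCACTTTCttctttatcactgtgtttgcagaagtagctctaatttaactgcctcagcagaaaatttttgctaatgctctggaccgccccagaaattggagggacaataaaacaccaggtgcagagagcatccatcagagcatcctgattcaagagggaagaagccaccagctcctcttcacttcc
Gbp3: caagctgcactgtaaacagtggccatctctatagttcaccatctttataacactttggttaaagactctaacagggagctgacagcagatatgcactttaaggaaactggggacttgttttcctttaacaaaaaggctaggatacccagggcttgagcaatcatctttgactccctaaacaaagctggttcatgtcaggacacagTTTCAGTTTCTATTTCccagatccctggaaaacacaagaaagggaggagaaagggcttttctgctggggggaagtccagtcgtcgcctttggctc
Cxcl10: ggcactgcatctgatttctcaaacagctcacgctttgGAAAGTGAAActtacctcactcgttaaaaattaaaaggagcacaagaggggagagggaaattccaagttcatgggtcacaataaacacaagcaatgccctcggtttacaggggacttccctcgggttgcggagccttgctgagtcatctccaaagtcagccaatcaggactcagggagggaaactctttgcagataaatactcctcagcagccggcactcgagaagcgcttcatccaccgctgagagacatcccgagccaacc
Searched on both strands, the motif lay in 7 of the 9 higher list members with a promoter in the table and in 6 of the 16 members between the thresholds, against 3.99% of all 27025 genes there. Of the 4830 measured genes with a promoter in the table, 3.42% held it. Among all higher genes it lay in 20 of 348 (5.75%) and among all lower genes in 11 of 312 (3.53%). It shared no base with the CArG box or the STAT site in the windows shown. The list holds genes known for this element, so the share within it describes the list.

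The guanylate-binding proteins, interferon-induced GTPases that act against intracellular pathogens, had the largest differences of the list among genes above the floor on both arrays. Gbp2b was at 82.5 with LIF and 662 without it, 8.02-fold higher. Gbp2 was at 71.7 and 518, 7.22-fold higher, and Gbp3 at 36.5 and 269, 7.37-fold higher. All 3 were at the floor on both active-Akt arrays, so every active-Akt value lay below the control value with LIF. These genes are close relatives on 1 chromosome, and cross-hybridisation between them was not tested. The chemokine Cxcl10, the ubiquitin-like Isg15, the GTPase Iigp1 and the nuclease Isg20 were at the floor on all arrays but control without LIF. There they were at 123, 89.8, 97.9 and 70.6, at least 7.81, 5.69, 6.20 and 4.47-fold higher. Irgm1, another interferon-induced GTPase, was at 60.2 and 158, with the floor and 21.5 in active-Akt cells. The transcription factor Irf1 was at 109 and 229.8, and Socs1, which inhibits interferon signalling, at 41.9 and 106.

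Antigen presentation genes, which cut, load and display peptides on the cell surface, were higher as well: 11 of 25 measured genes were called higher, none lower, and the median was 0.64, with 6 of 16 called higher when plain _at probe sets alone were used. Tapasin (Tapbp), which loads peptides onto class I molecules, was at 89.5 and 438, 4.89-fold higher, with 51.1 and 63.5 in active-Akt cells, and 2 other probe sets differed by 1.54 and 0.84 on the log2 scale. B2m, the light chain of class I molecules, was at 140.2 and 504, 3.60-fold higher, with 231 and 169 in active-Akt cells. The immunoproteasome subunit Psmb8 was at 41.4 and 110.2, 2.66-fold higher, and at the floor in active-Akt cells. Psmb8 was also the only one of 34 measured proteasome genes that was at least 2-fold higher. The proteasome activator Psme1 was 2.35-fold higher. The class I heavy chains H2-D1 and H2-K1 were 2.31 and 2.22-fold higher by probe sets shared within the family, and a specific H2-K1 probe set differed by -0.02 on the log2 scale. Class II pathway genes were low on all arrays: the invariant chain Cd74 was at 30.9 and 73.6, and H2-DMa at 19.6 and 45.7.

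**Figure D2:**
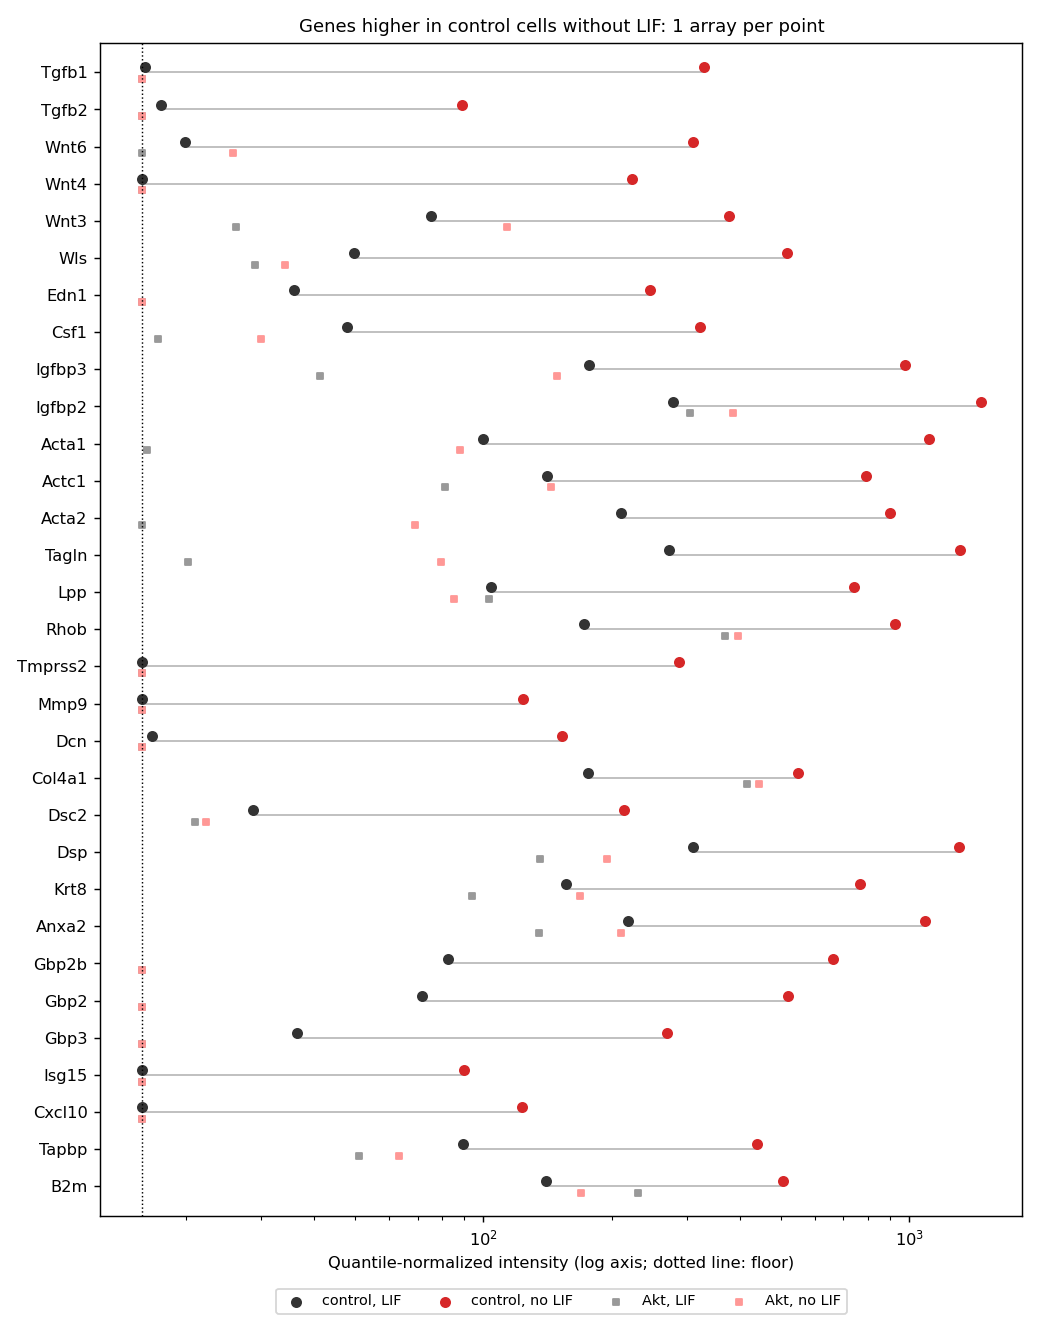
Quantile-normalised intensity (log axis) of named genes that were higher in control cells without LIF, 1 array per point: black (LIF) and red (no LIF) circles for control cells, grey (LIF) and pink (no LIF) squares for active-Akt cells, and the dotted line is the floor at 15.8. The red circle lies right of the black circle for each gene by the rule, and Gbp2b, Gbp2 and Gbp3 have both squares on the floor line, where the pink square covers the grey.

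Immediate early genes are switched on within minutes by growth factors, stress or handling. Of 33 measured genes of this list, which also holds feedback inhibitors of MAPK signalling, 11 were called higher, 2 lower, and the median was 0.53. Atf3 was at 51.0 with LIF and 252 without it in control cells, and at 97.6 and 86.9 in active-Akt cells. Fos was at 69.0 and 285 in control cells but at 330.2 and 184 in active-Akt cells, so the array with the highest level differed between these genes. Gadd45b was 4.25-fold, Phlda1 4.14-fold, Klf6 3.02-fold and Dusp1 2.46-fold higher. The 2 lower genes were Klf4 and Klf2, Kruppel-like factors of the undifferentiated state, at 568 and 86.4 and at 73.5 and the floor. Lats2, a kinase of the Hippo pathway that restrains Yap, was at 87.4 and 522, 5.97-fold higher, and Amot, a junction protein of that pathway, at 119.9 and 703, 5.86-fold higher.

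Among the genes that were lower without LIF, several enzymes of lysine and glycine breakdown stood out by size. Aass begins lysine breakdown in mitochondria. Aass was at 606 with LIF and 34.5 without it in control cells, 17.6-fold lower, and at 642 and 287 in active-Akt cells. Pipox, which oxidises pipecolic acid and sarcosine, was at 115 and the floor, at least 7.27-fold lower, with 146 and 112 in active-Akt cells. Gldc, the decarboxylase of the glycine cleavage system, was at 407 and 79.6, 5.11-fold lower, with 398 and 347. The control array without LIF was the lowest of the 4 for all 3 enzymes. Shmt1, which passes a one-carbon unit between serine and glycine, was at 417 and 107, 3.90-fold lower, and Qdpr, which regenerates the cofactor of phenylalanine hydroxylase, was 2.81-fold lower. The amino acid breakdown list as a whole was split: 4 of 28 measured genes were called lower, 4 higher, and the median was -0.34. The higher ones were Oat, which degrades ornithine, at 147 and 676, Fah, the last enzyme of tyrosine breakdown, at 65.8 and 263, the ketone body enzyme Oxct1 at 126 and 276, and arginase Arg1, at the floor and 44.5. In the list of serine, one-carbon and amino acid synthesis 1 of 16 measured genes was at least 2-fold lower and none higher.

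Metallothioneins are small cysteine-rich proteins that bind zinc and copper. Mt1 was at 646 with LIF and 50.9 without it in control cells, 12.7-fold lower, and at 2519 and 2172 in active-Akt cells. Mt2 was at 1684 and 284, 5.93-fold lower, against 3171 and 3004. Both were highest in active-Akt cells whether or not LIF was present. With the heme enzyme Urod and the ferritin chain Fth1 they made up the 4 of 25 measured metal handling genes that were at least 2-fold lower, and none was higher. A second Fth1 probe set, well above the floor, differed by 0.11 on the log2 scale, and with the mean of all probe sets of a gene 2 of the 25 were past 2-fold. Glutathione and antioxidant enzymes had the same pattern, 7 of 41 measured genes called lower, none higher, and a median of -0.21. Gsta4, the transferase for lipid aldehydes, was at 511 and 36.9 in control cells, and at 467 and 443 in active-Akt cells. The carbonyl reductase Cbr3 was at 98.1 and the floor, at least 6.22-fold lower. Sod2, the mitochondrial superoxide dismutase, was at 305 and 97.8, 3.12-fold lower, with 438 and 194 in active-Akt cells. Gpx4, which removes lipid peroxides, was 2.37-fold lower, and Gstp1, Gstt2 and Ephx2 were the other members of the 7.

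Fuel use differed by single genes more than by pathway. Of 39 measured glycolysis and glucose genes 5 were called lower, 1 higher, and the median was -0.21. The platelet-type phosphofructokinase Pfkp was at 161 and 23.9, 6.76-fold lower, and at 365 and 55.2 in active-Akt cells, and a second probe set differed by -2.27 on the log2 scale in control cells. Pdk1, the kinase that holds pyruvate dehydrogenase inactive, was at 449 and 161, 2.79-fold lower, while active-Akt cells had 323 and 368. The single higher gene was the glucose transporter Slc2a3, at 711 and 2029.9, 2.85-fold higher, with a second probe set at 1.75 on the log2 scale. Cpt1a, which admits long-chain fatty acids to mitochondria, was at 166 and 24.6, 6.74-fold lower, with 587 and 209 in active-Akt cells. Slc27a2, a fatty acid carrier and acyl-CoA synthetase, was at 174 and 25.5 in control cells but at 19.8 and 48.1 in active-Akt cells. In the fatty acid list 3 of 37 measured genes (8.11%) were called lower, 1 higher (2.7%), Etfdh, and the median was -0.13. Over all genes 6.40% were lower and 7.39% higher. Chchd10, a small protein of the mitochondrial intermembrane space, was at 1855 and 228, 8.14-fold lower, against 2997 and 2126 in active-Akt cells. Respiratory chain genes were seldom past 2-fold: 1 of 88 measured citrate cycle and respiratory chain genes was at least 2-fold lower and 2 were higher. Of the 88 genes, 63 were below 0 and the median was -0.15.

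Genes of the growth machinery were lower by small amounts across most members. Ribosome biogenesis proteins process ribosomal RNA and assemble the subunits in the nucleolus. Of 49 measured genes in this list 9 were called lower, none higher, 43 were below 0, and the median was -0.70. Many of the 9 lay just past 2-fold, and the count was 4 under cyclic loess and 14 when scaled to the hybridisation controls, with medians of -0.66 and -0.77. Utp14a, a subunit of the small-subunit processome, was at 329 with LIF and 70.9 without it in control cells, 4.64-fold lower, and at 156 and 402 in active-Akt cells, the opposite direction. Nop56, of the methylation guide complex, was at 1111 and 542, with 960.5 and 975 in active-Akt cells. Nhp2, of the pseudouridylation complex, was at 1576 and 751, with 1300 and 1494. Ppan, Ebna1bp2, Rrp12, Utp4, Ddx56 and Pus1 were 2.49, 2.26, 2.12, 2.08, 2.06 and 2.0-fold lower. The abundant nucleolar proteins differed less, Ncl by -0.65, Fbl by -0.58 and Npm1 by -0.15 on the log2 scale. The median of the same list between the active-Akt arrays was 0.20.

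Other growth lists were shifted the same way without many genes past 2-fold. Of 68 measured translation factor and tRNA synthetase genes 61 were below 0 with a median of -0.33. Of these genes 3 (4.41%, beside 6.40% of all genes) were at least 2-fold lower, Eif2s2, Vars and Farsa. The count was 6 when scaled to the hybridisation controls and 2 with the mean of all probe sets of a gene. A second Eif2s2 probe set near the floor differed by 0.40 on the log2 scale. Of 56 measured nucleotide synthesis and DNA replication genes 49 were below 0 with a median of -0.48. At least 2-fold lower were 4 of them (7.14%, near the 6.40% of all genes). The count was 7 when scaled to the hybridisation controls and 2 with the mean of all probe sets of a gene. The 4 genes were the polymerase subunits Pold1, Pold2 and Pole2 and the clamp loader subunit Rfc5, at 2.21, 2.92, 2.28 and 2.42-fold. A second Rfc5 probe set near the floor differed by 0.28 on the log2 scale and a second Pold1 probe set by 0.19. Of 38 measured mitosis genes 1 was at least 2-fold lower, with a median of -0.24. Proteasome subunits had a median of -0.27, with 29 of 34 below 0. Ribosomal proteins themselves were near the middle of all genes, with a median of -0.09 over 27 measured genes that turned to 0.05 under cyclic loess scaling, and Rpl39l as the single gene past 2-fold. Mycn, the Myc-family factor of embryonic stem cells, was at 858 and 227 in control cells, 3.78-fold lower, and at 202 and 465 in active-Akt cells. Its relative Mycl was at 93.4 and 255, 2.73-fold higher. In the G1 list 4 of 28 measured genes were at least 2-fold lower (Mycn, Myb, Ccne1, E2f1) and 2 higher (Mycl, Mxd4), and a second E2f1 probe set differed by 0.0091 on the log2 scale.

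**Figure D3:**
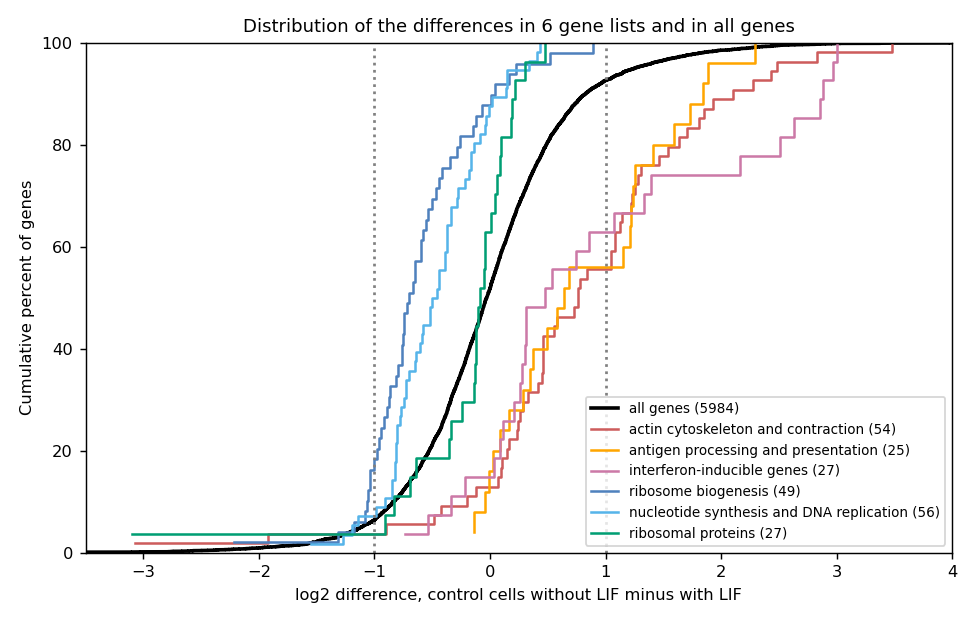
Cumulative share of measured genes (vertical axis, percent of the list) against the log2 difference without LIF minus with LIF in control cells (horizontal axis) for selected lists and for all measured genes, 1 array a condition. The curve of ribosome biogenesis (median -0.70) lies left of all genes (median -0.03), and that of the actin cytoskeleton (median 0.76) lies right of it.

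In the list of LIF and gp130 signalling 8 of 27 measured genes were called lower, 2 higher, and the median was -0.20. The promoter of Socs3 is printed because it holds the sequence TTCNNNGAA bound by activated STAT dimers, in capitals, starting 154 bases before the gene start (chr11:117969317-117969616, minus strand, RefSeq, GRCm38.p6, 5' to 3').
Socs3: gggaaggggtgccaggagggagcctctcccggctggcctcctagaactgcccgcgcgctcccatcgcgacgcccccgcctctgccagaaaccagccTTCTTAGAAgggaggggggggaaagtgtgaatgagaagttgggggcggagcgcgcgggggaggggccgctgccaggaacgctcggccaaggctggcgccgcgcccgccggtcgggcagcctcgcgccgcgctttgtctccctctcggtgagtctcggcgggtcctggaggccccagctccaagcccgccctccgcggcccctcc
This site, searched on both strands, lay in 2 of the 7 lower list members with a promoter in the table, Socs3 and Gab1, in 1 of 16 between the thresholds, and in 9.55% of all 27025 genes. Of the 4830 measured genes with a promoter in the table, 7.83% held it. Among all higher genes it lay in 8.33% and among all lower genes in 7.69%. Socs3 was at 262 with LIF and 50.7 without it in control cells, 5.17-fold lower, and at 181 and 24.4 in active-Akt cells. The second Socs3 probe set differed by -2.51 on the log2 scale in control cells. Socs2, a related inhibitor, was at 572 and 196, 2.91-fold lower, with 541 and 442 in active-Akt cells. Bcl3, a nuclear I-kappa-B protein, was at 136 and 41.9 in control cells and at 128 and the floor in active-Akt cells. The receptor Lifr was at 122 and 29.0, 4.22-fold lower, though 2 other probe sets near the floor differed by only -0.37 and -0.83 on the log2 scale. The survival kinase Pim2 was at 241 and 60.4 in control cells and at 60.2 and 350.0 in active-Akt cells. Jak2 was at the floor with LIF and at 62.2 without it, at least 3.94-fold higher. The transducers Stat3, Il6st and Jak1 differed by -0.18, -0.15 and 0.62 on the log2 scale, within 2-fold.

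In the PI3K-Akt list 4 of 18 measured genes were called lower, 2 higher, and the median was -0.30. Sgk1, a kinase related to Akt, was at 839.7 and 211 in control cells, 3.97-fold lower, and at 362 and 354 in active-Akt cells. Tcl1, which binds Akt and promotes its activity, was at 103 and 17.1 in control cells and 200.4 and 22.9 in active-Akt cells, lower without LIF in both. The phosphatase Inpp5d was at 76.1 and the floor, but a second probe set near the floor differed by 1.06 on the log2 scale. The insulin receptor substrate Irs2 was at 42.7 and 138, 3.23-fold higher. Among hedgehog and Notch genes 2 of 21 were called lower, 2 higher, and the median was -0.13. Each share was 9.52%, beside 6.40% lower and 7.39% higher over all genes. Ptch1, the hedgehog receptor and itself a target of the pathway, was at 376 with LIF and 19.2 without it in control cells, 19.6-fold lower, and at 178 and 277 in active-Akt cells. A second Ptch1 probe set, near the floor on both control arrays, differed by 0.057 on the log2 scale. Gli1, the other common readout of hedgehog signalling, was at 56.8 and the floor, at least 3.60-fold lower, and at 53.8 and 61.9 in active-Akt cells. Both readouts were thus lowest on the control array without LIF. The Notch target Hes1 was at 53.7 and 586, 10.9-fold higher, and the receptor Notch3 was 2.25-fold higher.

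Germ cell genes, many of which are silenced by DNA methylation in body tissues, had the largest share of lower members among the 46 role lists: 6 of 15 measured genes were called lower, none higher, and the median was -0.40. Rpl39l, a testis-enriched copy of a ribosomal protein gene, was at 236 and 27.6 in control cells, 8.55-fold lower, and at 518 and 283 in active-Akt cells. Dppa3 (Stella), which protects the maternal genome from demethylation, was at 136 and 22.4, 6.10-fold lower, with 51.4 and 23.9. Zp3, of the egg coat, was at 63.1 and the floor, at least 4.00-fold lower, and Dazl, an RNA-binding protein of germ cells, was at least 2.44-fold lower. Kit and Tcl1, given above, complete the 6. Outside the list, Tex19.1, which restrains transposable elements in germ cells, was at 191 and 27.8, 6.90-fold lower, with 236 and 189 in active-Akt cells. The X-linked homeobox gene Rhox5 was at 553 and 105, 5.28-fold lower, with 1242 and 883. Zfp57, which keeps imprints methylated, was at 86.0 and 16.4, 5.22-fold lower. These 3 genes were each at their lowest on the control array without LIF.

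In the list of DNA methylation and chromatin regulators 8 of 54 measured genes were called lower, 4 higher, and the median was -0.29. The de novo methyltransferase Dnmt3a was at 206 and 36.6 in control cells, 5.64-fold lower, and at 127 and 343 in active-Akt cells. The Polycomb-associated proteins Jarid2 and Phc1 were at 1115 and 468 and at 465 and 172, 2.38 and 2.70-fold lower. The histone H3 lysine methyltransferase Ehmt2, the heterochromatin protein Cbx1 and the remodeller Hells were 2.51, 3.10 and 2.16-fold lower. Hdac6, a mainly cytoplasmic deacetylase, and the acetyltransferase Kat2b were 3.16 and 2.81-fold lower. Hmga2, a DNA-bending protein of embryonic tissues, was at 93.6 and 491, 5.25-fold higher, while active-Akt cells had 132 and 65.2. Mbd2, Hdac7 and Hmgb3 were 2.22, 2.12 and 2.05-fold higher.

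**Figure D4:**
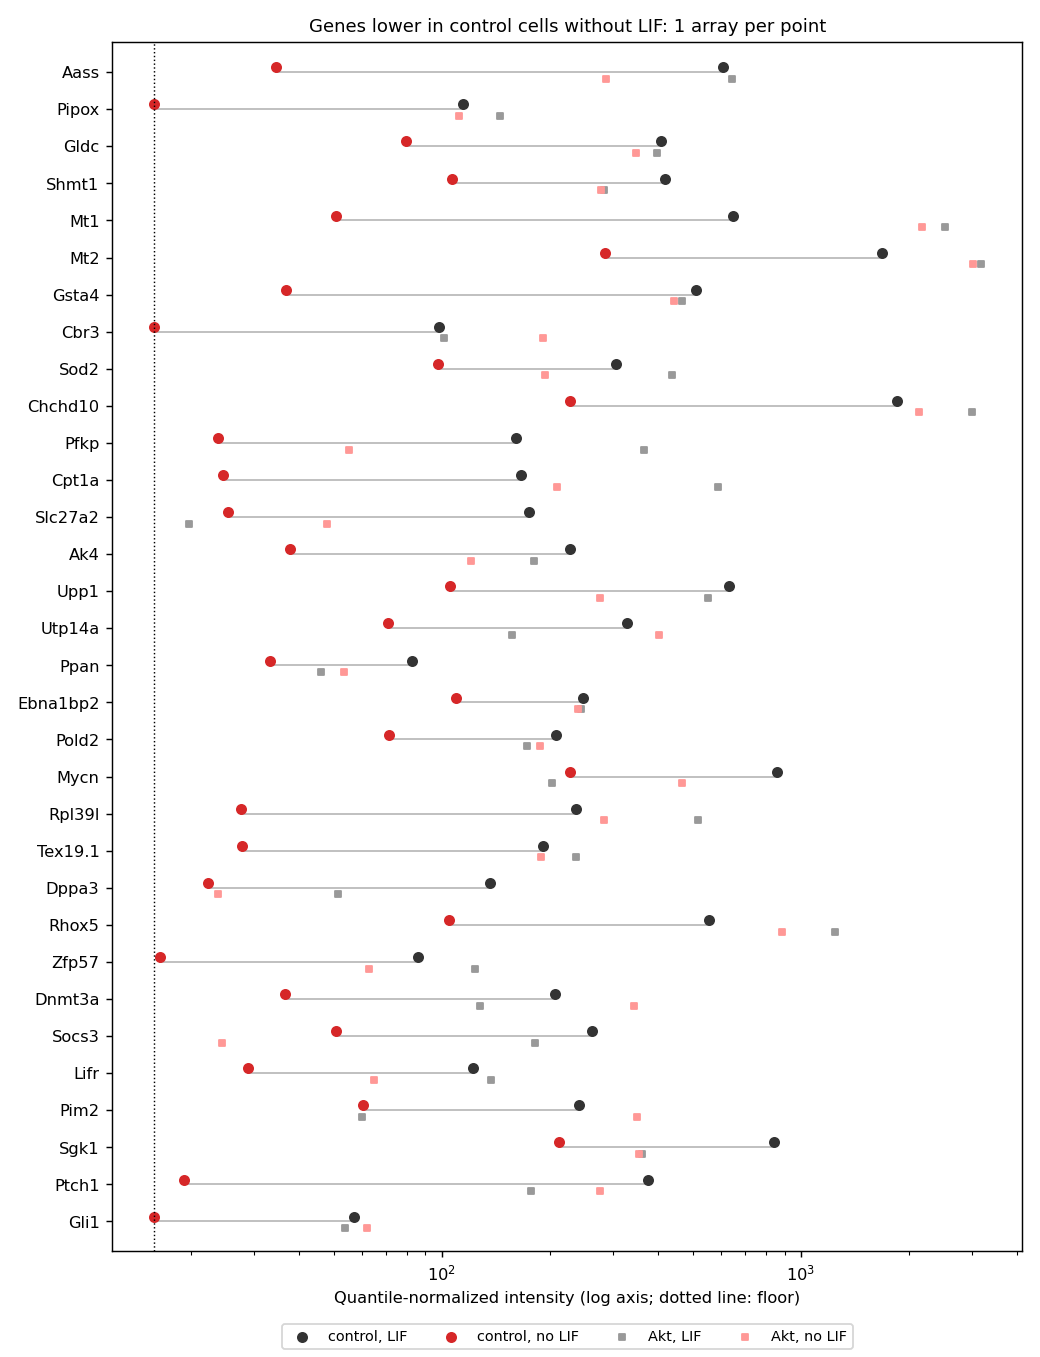
Quantile-normalised intensity (log axis) of named genes that were lower in control cells without LIF, 1 array per point: black (LIF) and red (no LIF) circles for control cells, grey (LIF) and pink (no LIF) squares for active-Akt cells, and the dotted line is the floor at 15.8. The red circle lies left of the black circle for each gene by the rule, and the squares of Mt1 and Mt2 lie right of both circles.

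Lysosome genes differed in both directions, 5 of 41 measured genes at least 2-fold higher and 5 lower. Higher were Litaf (3.83-fold), Arsa (3.68-fold), Laptm4a (2.34-fold), Lgmn (2.06-fold) and Naglu, at least 2.23-fold. Lower were the membrane protein Scarb2 at 121 and 35.1, the hydrolases Glb1, Ctsa and Ctsz, and Laptm5. The enzymes in the lower group were also lower without LIF in active-Akt cells, with Glb1 at 294 and 76.2 and Ctsa at 163 and 59.2. Neuronal genes were also split, with 5 of 31 measured genes at least 2-fold lower and 3 higher. The neurofilament-type gene Ina was at 613 and 124, 4.92-fold lower, and Crmp1, of growth cone guidance, at 113 and 29.1, 3.88-fold lower. The membrane-cytoskeleton protein Marcks was at 74.5 and 327, 4.39-fold higher.

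Homeobox genes were low in intensity: 41 of 87 on the array were measured, 7 of them at least 2-fold higher and 3 lower. Msx1 and Msx2, targets of BMP signalling, were at 55.9 and 304 and at the floor and 102. Evx1, a gene of the primitive streak, was at the floor on all arrays but control without LIF, at 122. Lower were Gbx2, at 69.9 and the floor, En2, at 90.8 and 27.5, and Pax6, at 31.9 and the floor. Imprinted genes, which are read from 1 parental copy, had 8 of 19 measured members at least 2-fold higher and none lower. Peg3 was at 390.1 and 1833, 4.70-fold higher, with 212 and 583 in active-Akt cells, and Igf2 at 254 and 989, with 930.1 and 1442.

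Several lists lay near the shares over all genes in at least 1 direction, or had few genes measured. Solute carriers were 5 of 98 higher and 5 lower. Ion channel genes were 4 of 44 higher (9.09%) and none lower, among them the chloride transporter Clcn5, at 97.0 and 555. A second Clcn5 probe set near the floor differed by 0.18 on the log2 scale. Secretory pathway genes were 4 of 58 higher (6.90%) and none lower, among them Ppic, Rcn1, Rcn2 and Kdelr3. Sterol and fatty acid synthesis genes were 1 of 30 higher and 2 lower, stress response genes 1 of 30 in each direction, and heat shock genes 3 of 35 higher and 2 lower. Genes of autophagy, ubiquitin and SUMO were 2 of 35 higher and 3 lower. Apoptosis regulators were 2 of 30 higher and none lower, p53 targets 3 of 16 higher and 1 lower, and chemokines and cytokines 2 of 11 higher and none lower. Where shares lay this close to 7.39% and 6.40%, or so few genes were measured, the counts past 2-fold describe single genes and not the lists. Small shifts across members were present in some of them. Secretory pathway genes had 43 of 58 above 0 and a median of 0.25, and apoptosis regulators 21 of 30 and 0.24. Heat shock genes had 25 of 35 below 0 and a median of -0.26, and stress response genes 21 of 30 and -0.13. Solute carriers had a median of -0.04.

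Of the 442 genes that were higher in control cells, 46 were at least 2-fold higher without LIF in active-Akt cells as well and 14 were at least 2-fold lower there. Of the 383 that were lower, 54 were at least 2-fold lower in active-Akt cells and 20 at least 2-fold higher. Of all 5984 measured genes, 175 (2.92%) were at least 2-fold higher and 206 (3.44%) at least 2-fold lower without LIF in active-Akt cells. Each of these counts sets 1 array against 1 array in each cell line, and no test compared the cell lines.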

How the data were processed

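Total RNA of each of the 4 samples was hybridised to an Affymetrix oligonucleotide array, and the deposited series table holds 1 linear intensity per probe set and sample, 12488 in all. The software, scaling and background correction behind these intensities are not stated in the labels used here. The 66 array control probe sets were left out, and the other 12422 were quantile-normalised over the 4 arrays (limma 3.58.1, R 4.3.3), floored at the 40th percentile (15.8) and set on the log2 scale (Python 3.11.15, pandas 2.3.3). GEO's platform annotation gave 1 symbol for 10833 probe sets, several for 396 and none for 1193, and 10817 were updated by gene identifier to the RefSeq table of GRCm38.p6. The probe set with the highest mean stands for a gene, which left 8251 genes, 2073 of them with several probe sets. Groups followed the sample titles. Differences are without LIF minus with LIF, and a gene counts as higher or lower at 2-fold when either control array exceeds the floor. With 1 array a group no test was run. The steps were checked on simulated data.

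The members, the 46 gene lists and the 7 marker lists (fibroblast, leukocyte, endothelial, muscle, trophoblast, undifferentiated stem cell, Y chromosome) were chosen with earlier results of these data known. The rule for named genes allowed up to 12 members past 2-fold in a direction and up to 6 other members of each list, the 40 most different genes in each direction and the 25 largest bounds in each direction. Promoter windows of 300 bases came from RefSeq. Alternatives covered the scaling, the floor, a pseudocount and the choice of probe sets.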

Additional observations from a re-analysis of the deposited data

Results flagged for a closer look

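For 12 named genes the difference between the arrays without and with LIF was at least 2-fold in control cells and at least 2-fold the opposite way in active-Akt cells. Each value sets 1 array against 1 array, the difference between the cell lines was not tested, and values are log2 differences, without minus with LIF, on the quantile-normalised scale.

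Among growth and cell cycle genes, lower without LIF in control cells and higher in active-Akt cells, Mycn differed by -1.92 and 1.20, Myb by -1.69 and 1.75, and the cyclin Ccne1 by -1.20 and 1.05. The ribosome assembly factor Utp14a differed by -2.21 and 1.36, and the pseudouridine synthase Pus1 by -1.0 and 2.14. The survival kinase Pim2 differed by -1.99 and 2.54, the methyltransferase Dnmt3a by -2.50 and 1.43, and the fatty acid carrier Slc27a2 by -2.78 and 1.28.

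In the other direction, higher without LIF in control cells and lower in active-Akt cells, galectin 3 (Lgals3) differed by 1.28 and -2.24 and the DNA-bending protein Hmga2 by 2.39 and -1.02. The lysosomal membrane protein Litaf differed by 1.94 and -1.15, and Kdelr3, which returns proteins to the endoplasmic reticulum, by 1.19 and -2.27.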

How the results depend on the processing

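No paired analysis was possible because each group has 1 array and no replicate numbers, and for the same reason no array could be left out. Counts of genes at least 2-fold higher and lower, 442 and 383, were 493 and 332 with trimmed mean scaling, 478 and 346 with cyclic loess, 402 and 467 when scaled to the hybridisation controls, 347 and 257 with a pseudocount in place of the floor, 382 and 336 with the mean of all probe sets and 394 and 360 with plain _at probe sets only. Requiring other probe sets to have the same sign, an alternative chosen after seeing the data, gave 434 and 368. With the floor at the 20th percentile they were 720 and 650, and with the floor at the 60th percentile 297 and 221, since that choice sets which low values count. Under the scalings the median of all genes lay between -0.09 and 0.03.

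The floor at the 60th percentile left 4318 genes. List medians then moved to 1.18 for proteases and inhibitors (19 genes), 1.14 for keratins (23 genes) and 1.46 for annexins and galectins (8 genes). They moved to 0.97 for interferon-inducible genes (16 genes) and 0.74 for chemokines (2 genes). The same floor gave marker medians of -0.69 for leukocyte (2 genes), 2.49 for muscle (3 genes) and 1.62 for trophoblast (7 genes). Medians over 2 or 3 genes describe those genes and not the lists. List medians with either sign under the settings tried were those of G1, neuronal, autophagy and ubiquitin, ribosomal protein, solute carrier, and hedgehog and Notch genes, and of endothelial, leukocyte and muscle markers. With plain _at probe sets only, H2-K1 turned to -0.024 and E2f1 to 0.0091, by construction, because another probe set then stands for the gene. Cfl1, at 0.07, was at -0.0054 with trimmed mean scaling and -0.13 when scaled to the hybridisation controls, and no other named gene took the opposite sign in the settings that measured it. Of 301 named genes past 2-fold, 8 were no longer past it under cyclic loess, 11 with trimmed mean scaling, 22 when scaled to the hybridisation controls, 39 with the pseudocount and 40 with the mean of all probe sets. Of those with a value, 37 of 275 were no longer past it with the floor at the 60th percentile and 4 of 274 with plain _at probe sets. Values of named genes moved by more than the probe set SD for 72, 72, 60, 31 and 5 genes with the 60th percentile floor, the mean of all probe sets, the pseudocount, the 20th percentile floor and plain _at probe sets, beside the 2 that changed sign.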
